A study of Mus musculus with 6 samples.

Results

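The genes of the spliceosome and of the main pre-mRNA binding protein families were examined in group 2 innate lymphoid cells (ILC2s), tissue lymphocytes of type 2 immunity, that had been sorted from mouse lung. Members were the protein-coding rows of the deposited gene table named Snrp, Sf3a or Sf3b, Srsf, Prpf, Lsm, Hnrnp or U2af in a fixed pattern, plus U2surp. This rule gave 81 rows out of 39527, carrying 80 gene names because U2af1l4 stood under 2 identifiers. Names of the Snrnp form, such as Snrnp70, are outside the pattern and were counted in a separate list.

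RNA was sequenced from 3 KO samples (R5/+LKB1f/f) and 3 WT samples (R5/+), so that both groups carry R5/+ and the KO adds floxed LKB1 alleles. All mice had received 4 days of IL-33, the alarmin cytokine that activates ILC2s, and each sample pooled 3 to 4 mice. The labels name neither the Cre driver nor the age of the mice, and do not spell out R5. LKB1 is a serine/threonine kinase, encoded by Stk11, that activates AMPK and related kinases.

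The table gives, for each gene, the authors' own comparison of the genotypes: a mean normalized count, a log2 fold change, the standard error (SE) of that change, and an adjusted p-value. It has no value per labelled sample that could be used here, so the spread between samples is known only through the SE, and which libraries lie behind the fit is not stated. Which genotype stands on top of the fold change is not stated either, so signs are given as deposited and no gene is assigned to the higher or lower genotype. Stk11 (ENSMUSG00000003068, mm10 chromosome 10, 80115803 to 80130682, plus strand), the floxed gene, was negative in the authors' deposited table, at -1.34 ± 0.30 (SE, adjusted p = 0.000103). This value counts the whole gene, exons outside the floxed stretch included, and the labels do not describe that stretch. A negative sign below is therefore the sign that Stk11 also has. "Negative" and "positive", used of a gene or a count, stand for that sign together with passing the threshold of 0.05 on the adjusted p. In bulk RNA, fewer cells of a type and less RNA per cell cannot be told apart.

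Introns are removed from pre-mRNA by the spliceosome, which is built anew on each intron from small nuclear ribonucleoproteins (snRNPs). U1 and U2 recognise the splice site and the branch point, and the U4/U6.U5 tri-snRNP then joins to form the active machine. Each snRNP holds a ring of Sm proteins, or of LSm proteins in the case of U6. Serine/arginine-rich (SR) proteins mostly favour the use of nearby exons, and hnRNP proteins coat the nascent transcript and often oppose it. In lymphocytes, activation and growth are accompanied by a higher demand for RNA processing and by changes in exon choice, for example in the Ptprc gene, whose variable exons are controlled by Hnrnpll and Hnrnpl.

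Most members lay below 0, and a larger share of them than of all genes was negative. Of the 79 members with an adjusted p, 38 were negative and 1 was positive in the authors' deposited table, which is 48.1% and 1.27% of them. Over all 14961 genes with an adjusted p, 24.5% passed in either direction, 13.5% negative and 11.0% positive. Among protein-coding genes 14.7% were negative, and among the most abundant 25% of tested genes 23.4% were, a class that held 52 of the 79 members. Below 0 lay 64 tested members and above 0 lay 15, whereas over all tested genes 50.4% lay below 0. The median log2 fold change of the members was -0.37, against -0.0056 over all tested genes and -0.04 over the most abundant 25% of them.

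The differences were small in size. The median log2 fold change of the 38 negative members was -0.59, a 1.5-fold difference. At least 1.5-fold were 19 of them, beside 8.70% of all tested genes that were negative with such a difference. Of the negative members, Hnrnpa1 and Hnrnpab reached 2-fold, and no member was among the 100 genes with the smallest p-values. The median SE of the members was 0.15, so that a member with that SE had a 95% interval of about 0.30 on either side of its log2 fold change. Of the 40 tested members that did not pass, 26 lay below 0, and 31 had 95% intervals (not adjusted for multiple testing) inside a 1.5-fold difference in both directions.

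**Figure D1:**
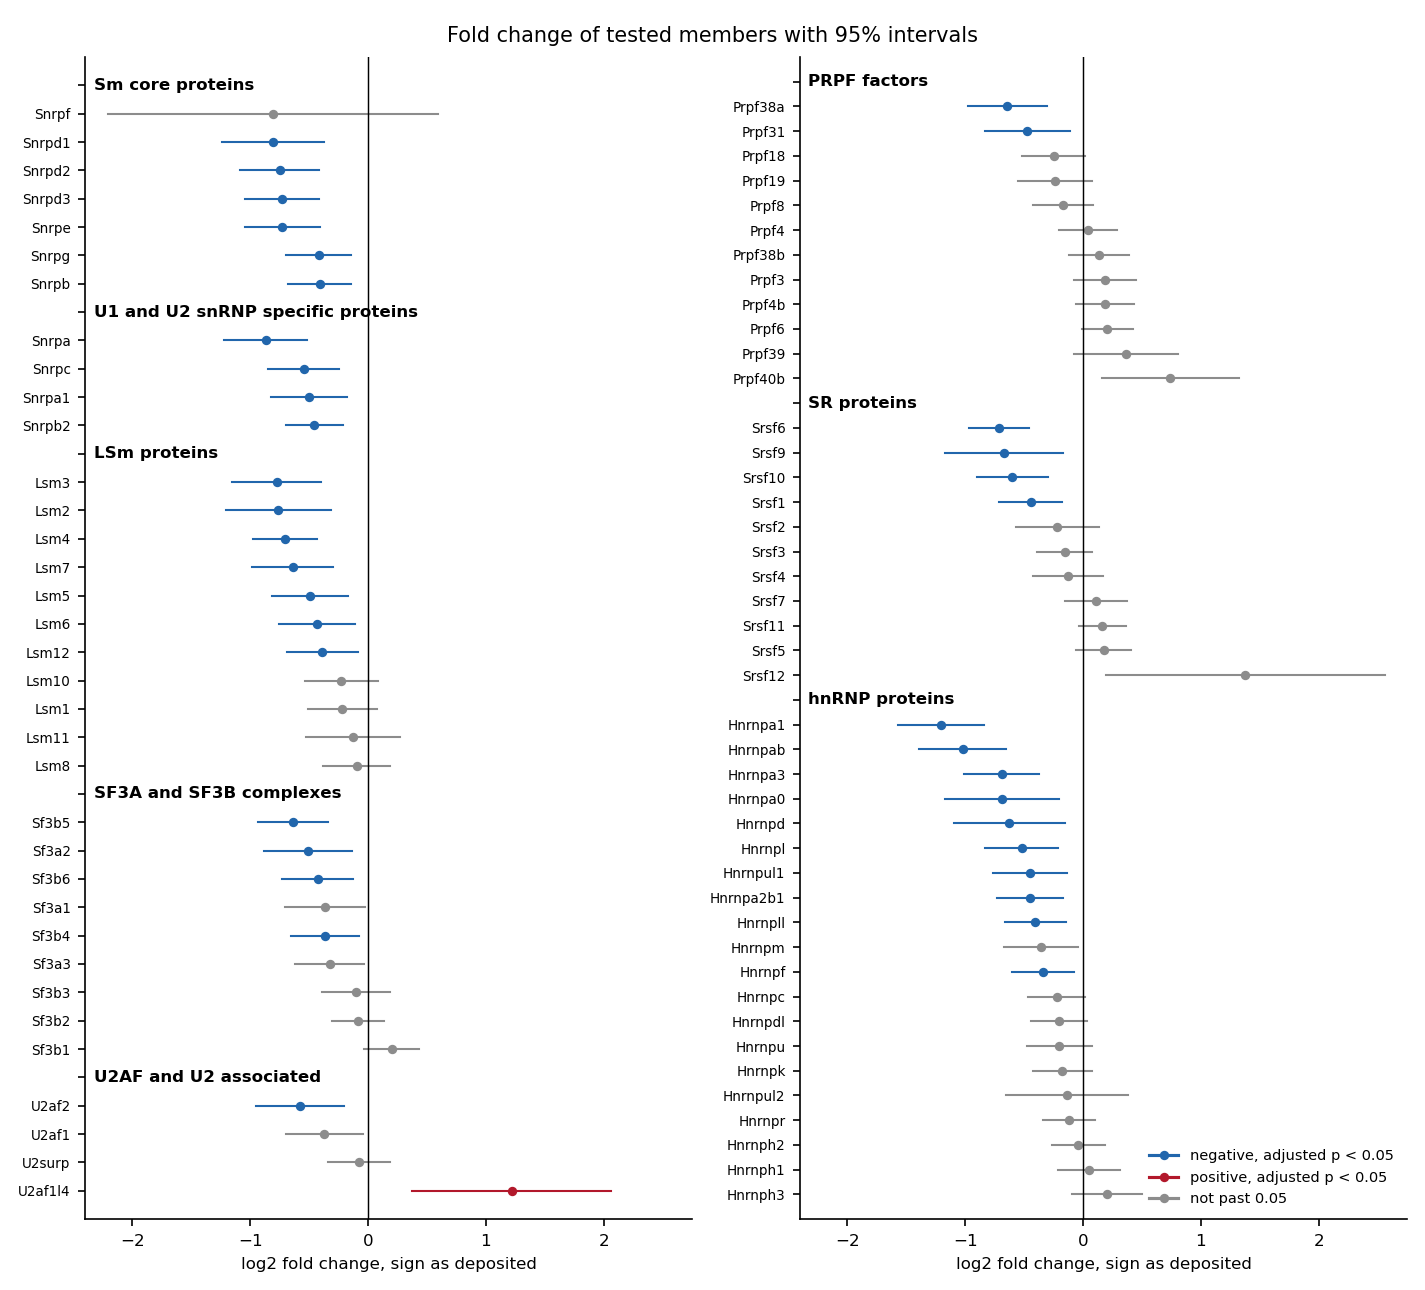
Log2 fold change, with the sign as deposited, of the tested members grouped by role, of which 1 is not drawn. Points are the authors' deposited values, bars are 95% intervals from the deposited standard errors, and colour gives the call. The blue points (38) lie left of 0, the single red point is U2af1l4, and Snrpf and Srsf12, both with few counts, have the widest bars.

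The Sm proteins form the 7-membered ring around U1, U2, U4 and U5 snRNA. Of 7 tested genes of this group 6 were negative, with a median of -0.73. Snrpd3 (ENSMUSG00000020180, mm10 as for all positions, chromosome 10, 75517551 to 75537381) had -0.73 ± 0.16 (SE), a 1.66-fold difference (adjusted p = 7.83e-05), by the authors' deposited table. Its ring partners Snrpe and Snrpd2 stood at -0.73 ± 0.16 (adjusted p = 0.000137) and -0.75 ± 0.17 (adjusted p = 0.00018) in the authors' deposited table. Snrpd1 was also negative at -0.81, whereas Snrpg and Snrpb, the most abundant of the group, were nearer to 0 at -0.42 ± 0.14 and -0.41 ± 0.14 in the authors' deposited table. With the length and GC trends described below removed, only Snrpd2 and Snrpd3 of the group still passed, and its median was -0.38.

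Snrpf, the remaining ring subunit, was almost uncounted, with a mean of 10.5 normalized counts against 815 to 5946 for the 6 others. Its fold change of -0.81 ± 0.71 in the authors' deposited table did not pass (adjusted p = 0.451). In GENCODE M21, 85.4% of its exonic bases lie opposite exons of Ccdc38 and 4933408J17Rik, and the sources used here do not say how reads in such overlaps were counted. Snrpn, a paralog of Snrpb that is best known from neurons, had a mean below 10 normalized counts and no adjusted p.

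The proteins specific to U1 and U2 were negative in all 4 cases as deposited, and in 2 of 4 with the length and GC trends described below removed. Snrpa, the U1 protein that binds a stem-loop of U1 snRNA, had -0.87 ± 0.18 (adjusted p = 2.31e-05) in the authors' deposited table. Snrpc, which encodes a U1 protein needed for contact with the 5' splice site, followed with -0.55 ± 0.15 (adjusted p = 0.00297) in the authors' deposited table. The U2 genes completed the group in the authors' deposited table, Snrpa1 at -0.50 ± 0.16 (adjusted p = 0.0129) and Snrpb2 at -0.46 ± 0.12 (adjusted p = 0.00183).

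LSm proteins form 2 heptameric rings that share 6 subunits. LSm2 to LSm8 binds the end of U6 snRNA in the nucleus, and LSm1 to LSm7 acts in cytoplasmic mRNA decay. In the authors' deposited table the 6 shared subunits were all negative and ranged from -0.78 to -0.43. Lsm4 had -0.71 ± 0.14 (adjusted p = 9.17e-06), Lsm3 -0.78 ± 0.19 (adjusted p = 0.000724) and Lsm7 -0.64 ± 0.18 (adjusted p = 0.00242) in the authors' deposited table. With the length and GC trends described below removed, Lsm2, Lsm3 and Lsm4 still passed. Lsm5 (-0.12), Lsm6 (-0.33) and Lsm7 (-0.42) then did not. The subunits that tell the rings apart did not pass: Lsm8 of the U6 ring had -0.10 ± 0.14 and Lsm1 of the decay ring -0.22 ± 0.15 in the authors' deposited table. Whether these differ from the shared subunits was not tested. Lsm10 and Lsm11, which replace Sm subunits in the U7 snRNP of histone mRNA processing, also did not pass (-0.23 and -0.13), while Lsm12 did at -0.39 (adjusted p = 0.0485) in the authors' deposited table.

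SF3A and SF3B are the parts of the U2 snRNP that hold the branch point. Of 9 genes 4 were negative (44.4%, beside 13.5% of all tested genes) and 0 positive, with a median of -0.37. The 3 small SF3B subunits Sf3b4, Sf3b5 and Sf3b6 were all negative, with Sf3b5 at -0.64 ± 0.15 (adjusted p = 0.000355) and Sf3b6, the p14 protein next to the branch-point adenosine, at -0.43 ± 0.15 (adjusted p = 0.0247) in the authors' deposited table. The 3 large subunits did not pass. Sf3b1, the HEAT-repeat scaffold and the most abundant gene of the group, had 0.20 ± 0.12 with a 95% interval of -0.03 to 0.43 in the authors' deposited table. Sf3b2 and Sf3b3 stood at -0.09 and -0.10 in the authors' deposited table. Sf3a2 had -0.51 ± 0.19 (adjusted p = 0.0358), and its partners Sf3a1 and Sf3a3 had -0.37 and -0.32 without passing in the authors' deposited table. With the length and GC trends described below removed, Sf3b4 (-0.22) and Sf3b6 (-0.23) no longer passed, and the large subunits Sf3b2 and Sf3b3 had -0.18 and -0.26. The difference between small and large subunits was not tested.

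U2AF recognises the polypyrimidine tract and the AG at the 3' splice site. U2af2, its large subunit, was negative at -0.58 ± 0.19 (adjusted p = 0.0143), whereas the small subunit U2af1 had -0.37 ± 0.16 (adjusted p = 0.086) in the authors' deposited table. U2surp, a U2-associated SR-like protein, had -0.08 ± 0.14 (adjusted p = 0.739) in the authors' deposited table. The only positive member was U2af1l4, a paralog of the small subunit, at 1.22 ± 0.43 (adjusted p = 0.0232) in the authors' deposited table. That row (ENSMUSG00000109378, chromosome 7, 30563344 to 30567960) had a mean of 55.9 normalized counts and is named Gm49396 in GENCODE M21. There, 72.8% of its exonic bases lie in exons of Igflr1 or the shorter U2af1l4 gene on the same strand, and 3.43% lie opposite exons of Psenen. The shorter gene (ENSMUSG00000078765) had a mean of 2.16 normalized counts and no adjusted p. The value of U2af1l4 is thus uncertain, since its reads cannot be assigned to a single gene.

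PRPF proteins serve mainly the tri-snRNP and the activation of the spliceosome. They differed least: 2 of 13 were negative, 0 positive, 7 lay above 0, and the median was 0.04, although the mean weighted by precision was -0.02. That negative share, 15.4%, was close to the 13.5% of all tested genes and below the 23.4% of the most abundant 25%. Prpf38a, needed for activation, had -0.64 ± 0.17 (adjusted p = 0.00153) and Prpf31 of the U4 snRNP -0.47 ± 0.18 (adjusted p = 0.0428) in the authors' deposited table. Prpf8, the large U5 protein at the catalytic centre and the most abundant of them, had -0.17 ± 0.13 (adjusted p = 0.365) in the authors' deposited table. Prpf3, Prpf4 and Prpf6, further tri-snRNP proteins, lay between 0.04 and 0.21 in the authors' deposited table without passing. Prpf40b was highest at 0.74 ± 0.30, at 117 normalized counts and just short of the threshold (adjusted p = 0.0511) in the authors' deposited table.

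Of 11 SR proteins 4 were negative (36.4%, beside 13.5% of all tested genes) and 0 positive. Srsf6 (ENSMUSG00000016921, chromosome 2, 162931528 to 162937121), an SR protein with paired RNA recognition motifs, had -0.71 ± 0.13 (adjusted p = 1.86e-06) in the authors' deposited table. Srsf10, an SR protein that acts as a repressor when dephosphorylated, had -0.60 ± 0.15 (adjusted p = 0.0011) and Srsf1, the founding member SF2/ASF, -0.44 ± 0.14 (adjusted p = 0.00725) in the authors' deposited table. Srsf9, at 108 normalized counts, was the fourth, with -0.67 ± 0.26 (adjusted p = 0.0393) in the authors' deposited table. The abundant members Srsf3, Srsf5, Srsf7 and Srsf11 did not pass and went both ways, between -0.16 and 0.17, with Srsf5 at 0.17 ± 0.12 (adjusted p = 0.314) in the authors' deposited table. Srsf12 had the highest fold change of all tested members, 1.38 ± 0.60, but at a mean of 15.2 normalized counts and without passing (adjusted p = 0.0796) in the authors' deposited table.

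The hnRNP family held both the furthest negative member and the most abundant ones. Of 20 genes 10 were negative (50%, beside 13.5% of all tested genes) and 0 positive, with a median of -0.35. Hnrnpa1 (ENSMUSG00000046434, chromosome 15, 103240432 to 103246692), which represses exons bound at UAG-containing sites, had -1.21 ± 0.19, a 2.31-fold difference (adjusted p = 8.03e-09), by the authors' deposited table. Hnrnpab, a relative of Hnrnpd, had -1.02 ± 0.19 (2.03-fold, adjusted p = 1.92e-06) in the authors' deposited table. All 4 hnRNP A/B genes were negative, Hnrnpa3 at -0.69 ± 0.16 (adjusted p = 0.000255), Hnrnpa0 at -0.69 and Hnrnpa2b1 at -0.45 in the authors' deposited table. Hnrnpd, the AU-rich element binding protein AUF1, had -0.62 ± 0.24, while its paralog Hnrnpdl had -0.21 ± 0.12 without passing in the authors' deposited table.

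Both regulators of Ptprc exons passed, Hnrnpl at -0.52 ± 0.16 (adjusted p = 0.00735) and Hnrnpll at -0.40 ± 0.13 (adjusted p = 0.0129) in the authors' deposited table. Among the G-tract binding F/H proteins only Hnrnpf passed, at -0.34 ± 0.13 and close to the threshold (adjusted p = 0.0491), while Hnrnph1, Hnrnph2 and Hnrnph3 lay between -0.04 and 0.20 in the authors' deposited table. Hnrnpk, which binds C-rich RNA and had the highest mean of the members (25990 normalized counts), had -0.18 ± 0.13 (adjusted p = 0.333) in the authors' deposited table. Hnrnpc, Hnrnpm, Hnrnpr and Hnrnpu did not pass and lay between -0.36 and -0.12 in the authors' deposited table. Hnrnpul1, a relative of Hnrnpu, passed at -0.45 and Hnrnpul2 did not (-0.13) in the authors' deposited table.

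Members were well expressed. Together they took 1.33% of the summed mean normalized counts of the table, and 76 of 81 had a mean of at least 100. Per kilobase of exonic sequence, Hnrnpk (4019 normalized counts per kb), Hnrnpa2b1 (3328), Snrpb (3009), Srsf5 (2813) and Hnrnpf (2602) stood highest. The plot of fold change against mean normalized count shows negative members between 108 and 21912 normalized counts, with none among the 3 tested members under 100. Across the 79 tested members the log2 fold change and the log10 mean had a Spearman rho of 0.16, given as a description since genes are not independent replicates.

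**Figure D2:**
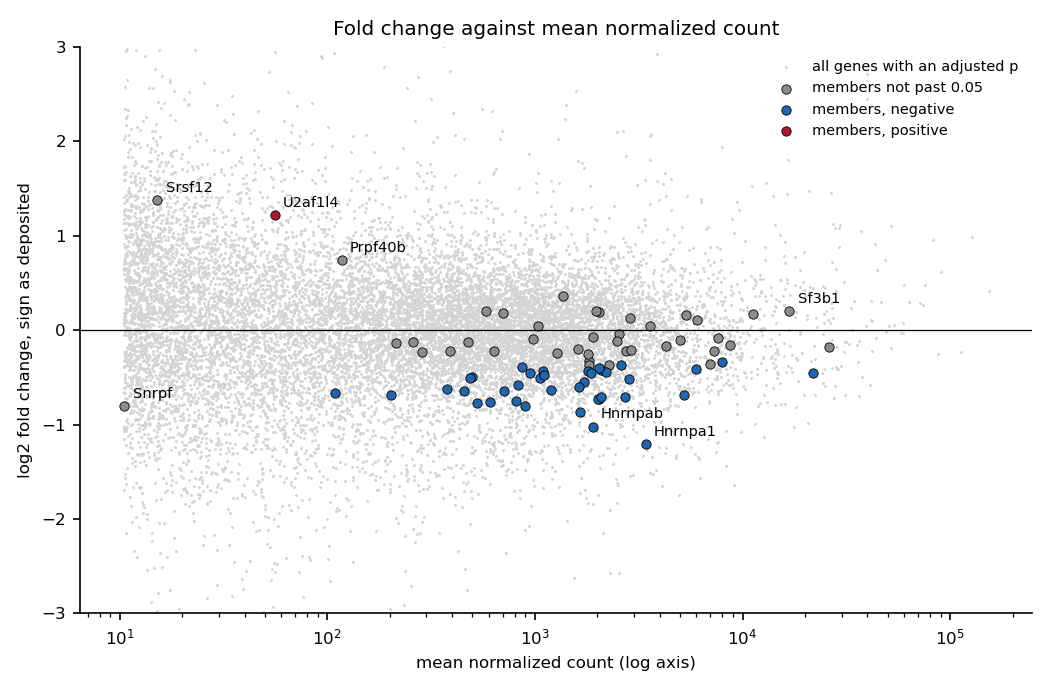
Log2 fold change (sign as deposited) against the mean normalized count on a log axis, for all tested genes (light grey) and the 79 tested members. Tested genes beyond 3 in either direction (100) are not drawn. Negative members (38) lie between 108 and 21912 normalized counts, while U2af1l4, Srsf12 and Snrpf lie at the low end.

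Fold changes in this table also followed exonic length, counted as the union of a gene's annotated exons. Members of short exonic length were the most often negative. Over 13036 protein-coding genes the Spearman rho of exonic length and log2 fold change was 0.26, and over the 79 members it was 0.46. In the shortest 25% of the members, with 792 to 2854 exonic bases, 16 of 20 were negative with a median of -0.57, where protein-coding genes of that length range had a median of -0.24 and 23.6% negative. In the longest 25% (6822 to 22199 bases), 4 of 20 were negative with a median of -0.15, against a median of 0.15 and 7.18% negative for protein-coding genes of that range. The median in each of the 4 length classes was lower in members than in protein-coding genes of the same range.

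**Figure D3:**
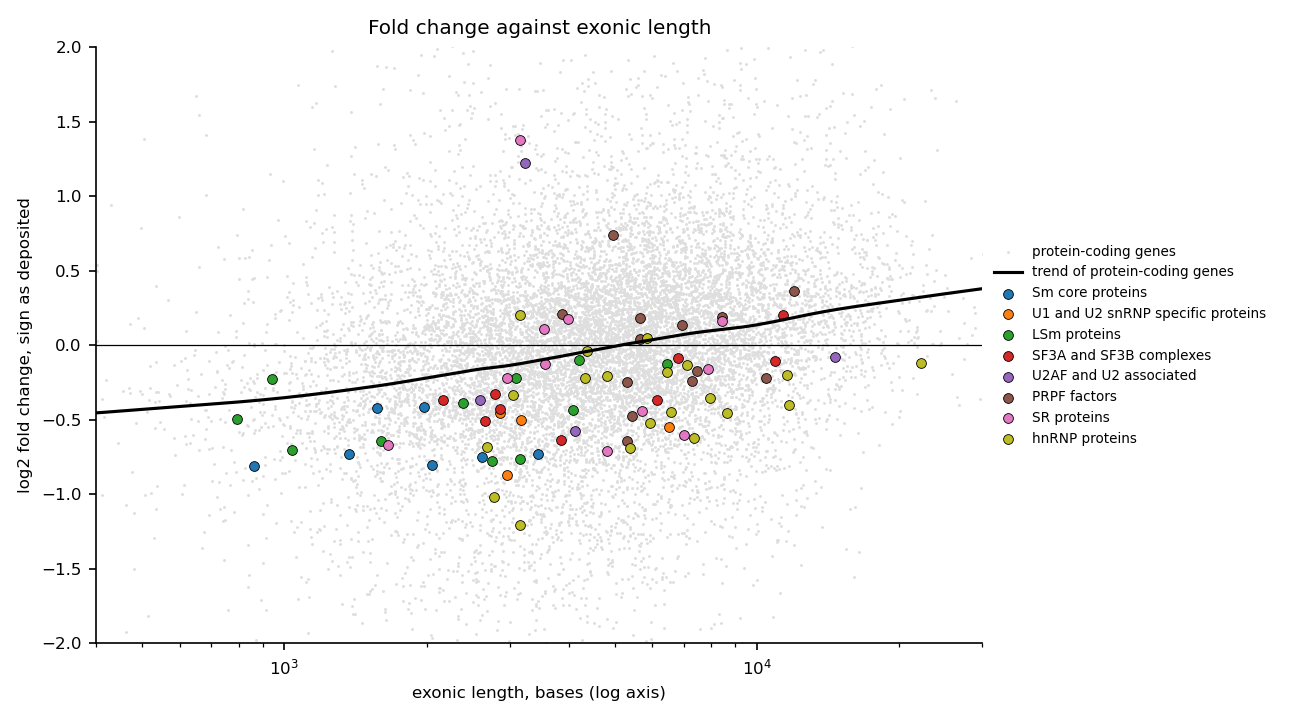
Log2 fold change (sign as deposited) against exonic length on a log axis for protein-coding genes (light grey) and the tested members coloured by role, with the lowess trend of the protein-coding genes as a line. Protein-coding genes beyond 2 in either direction (200) are not drawn. Of the 79 members 61 lie below the trend in length and GC content, and the Sm and LSm genes other than Lsm11 sit at short lengths where the line itself is below 0.

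When the trends with length and then GC content were removed, 24 members were negative and 2 positive (11.5% and 11.2% of 13036 protein-coding genes), and the median was -0.27. Of the 38 negative members 22 remained, 16 no longer passed, and Hnrnpm and Hnrnpr became negative in addition. The 2 positive ones were U2af1l4 (1.32) and Srsf12 (1.55), with means of only 55.9 and 15.2 normalized counts. The Sm median was -0.38 after removal with 2 of 7 negative (Snrpd2 and Snrpd3), and the LSm median was -0.20 with 3 of 11 (Lsm2, Lsm3 and Lsm4). Of the U1 and U2 genes Snrpa and Snrpc still passed, while Snrpa1 (-0.33) and Snrpb2 (-0.27) did not, and of the SF3 genes only Sf3b5 did, against 4 as deposited. The hnRNP median was -0.42 with 10 of 20 negative, and the SR median -0.09 with 3 of 11 negative and Srsf12 positive. After removal Hnrnpa1 had -1.03, Hnrnpab -0.88, Snrpa -0.75 and Srsf6 -0.64. The part of exonic length in the differences of the short Sm and LSm genes was not tested further.

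**Figure D4:**
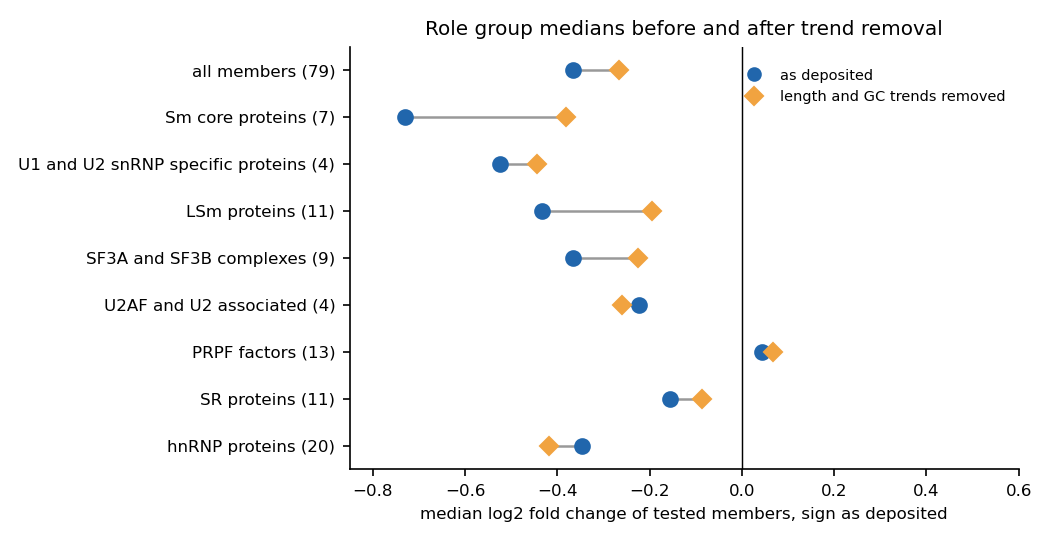
Median log2 fold change (sign as deposited) of all tested members and of each role group, as deposited (circles) and after the length and GC trends of protein-coding genes were removed (diamonds). Numbers in brackets are tested members. The Sm median is -0.73 as deposited and -0.38 after removal, the hnRNP median -0.35 and -0.42.

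Reads of some members can fall on copies or neighbours. For 26 members GENCODE M21 held a copy with at least 95% identity over at least 80% of the coding sequence, mostly a processed pseudogene, and Hnrnpa3 had 19 such copies. Summed over copies, means reached 3.55% of the member's own for Hnrnpa3, 4.89% for Snrpg and 9.55% for Lsm7. They were higher for Snrpf (52.0%), and the U2af1l4 rows are copies of each other. Exons of another gene covered at least 10% of the exonic bases of 12 members, among them Hnrnpab (29.1% on the opposite strand, with Phykpl), Srsf4 (43.0%) and Hnrnpf (26.5%). Among the 49 tested members with neither feature, 19 were negative and 0 positive, with a median of -0.22.

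Promoter sequence was compared among members that shared a sign. For 68 of the 80 names RefSeq promoter windows (GRCm38.p6, 250 bases before to 50 after the start) were at hand. The names without an entry included U2af2, Sf3b5, Snrpb, Snrpd1 and Lsm4. Windows of 7 negative members are printed, 3 of the Sm ring and 1 each of the U1/U2, LSm, SR and hnRNP groups, chosen by smallest p among genes with a single window. They lie at Snrpd3 chr10:75517792-75518091 (plus strand), Snrpe chr1:133610231-133610530 (minus strand), Snrpd2 chr7:19149588-19149887 (plus strand), Snrpb2 chr2:143062819-143063118 (plus strand), Lsm3 chr6:91515785-91516084 (plus strand), Srsf6 chr2:162931258-162931557 (plus strand), Hnrnpa1 chr15:103240147-103240446 (plus strand). Letters are 5' to 3' on the strand of the gene, and capitals mark matches to the searched motifs.
Snrpd3: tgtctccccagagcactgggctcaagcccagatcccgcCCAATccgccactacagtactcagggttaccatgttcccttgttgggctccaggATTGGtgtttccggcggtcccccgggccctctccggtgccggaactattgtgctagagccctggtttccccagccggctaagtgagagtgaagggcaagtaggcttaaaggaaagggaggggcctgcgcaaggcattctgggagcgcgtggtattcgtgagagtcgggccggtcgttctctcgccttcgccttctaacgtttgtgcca 
Snrpe: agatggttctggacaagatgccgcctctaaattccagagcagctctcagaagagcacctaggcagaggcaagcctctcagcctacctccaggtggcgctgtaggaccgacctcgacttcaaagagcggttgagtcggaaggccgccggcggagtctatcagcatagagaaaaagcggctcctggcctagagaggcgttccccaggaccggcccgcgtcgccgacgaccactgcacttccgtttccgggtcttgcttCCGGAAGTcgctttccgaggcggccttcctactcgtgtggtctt 
Snrpd2: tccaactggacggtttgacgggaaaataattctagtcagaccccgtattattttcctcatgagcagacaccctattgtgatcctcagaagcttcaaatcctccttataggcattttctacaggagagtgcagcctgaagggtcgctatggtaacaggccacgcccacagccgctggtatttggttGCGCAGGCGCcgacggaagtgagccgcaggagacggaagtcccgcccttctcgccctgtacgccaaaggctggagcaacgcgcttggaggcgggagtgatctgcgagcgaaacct 
Snrpb2: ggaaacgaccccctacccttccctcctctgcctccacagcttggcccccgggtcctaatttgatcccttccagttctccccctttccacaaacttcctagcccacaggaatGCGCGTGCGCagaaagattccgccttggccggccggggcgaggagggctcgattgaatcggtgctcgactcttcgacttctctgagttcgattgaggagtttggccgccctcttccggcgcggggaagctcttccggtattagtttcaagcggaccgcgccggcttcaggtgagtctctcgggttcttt 
Lsm3: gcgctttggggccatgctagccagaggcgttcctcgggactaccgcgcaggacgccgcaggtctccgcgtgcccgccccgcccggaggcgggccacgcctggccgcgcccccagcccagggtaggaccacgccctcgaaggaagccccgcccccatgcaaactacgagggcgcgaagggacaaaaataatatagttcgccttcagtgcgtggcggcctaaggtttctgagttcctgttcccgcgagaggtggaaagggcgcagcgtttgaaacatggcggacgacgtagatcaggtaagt 
Srsf6: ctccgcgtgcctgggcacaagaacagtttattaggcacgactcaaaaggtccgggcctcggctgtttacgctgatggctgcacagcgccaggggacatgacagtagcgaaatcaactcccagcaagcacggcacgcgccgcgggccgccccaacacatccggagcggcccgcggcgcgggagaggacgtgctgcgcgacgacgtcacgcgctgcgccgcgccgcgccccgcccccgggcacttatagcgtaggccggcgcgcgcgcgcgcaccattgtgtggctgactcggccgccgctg 
Hnrnpa1: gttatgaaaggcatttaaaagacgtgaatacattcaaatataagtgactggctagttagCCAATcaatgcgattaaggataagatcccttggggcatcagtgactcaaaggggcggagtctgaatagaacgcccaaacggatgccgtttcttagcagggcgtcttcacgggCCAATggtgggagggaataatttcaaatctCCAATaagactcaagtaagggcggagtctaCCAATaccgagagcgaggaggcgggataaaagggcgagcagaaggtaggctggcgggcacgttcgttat

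The motifs searched, on both strands, were the E-box CACGTG, the CCAAT box, the ETS motif CCGGAAGT, and the NRF1 and YY1 motifs. No motif contains another. Snrpd3 held 2 CCAAT matches and Hnrnpa1 held 4, the nearest 19 bases before the start, while Snrpe held an ETS match just after its start and Snrpd2 and Snrpb2 each held an NRF1 match. Lsm3 and Srsf6 held none of these letters. Over all 91 windows of members, NRF1 was found in 20.9%, against 6.38% of the 21262 windows of protein-coding genes, and ETS in 15.4% against 5.15%. CCAAT stood in 46.2% against 38.2%, the E-box in 12.1% against 7.84% and YY1 in 1.10% against 0.889%. Windows rather than genes were counted. The 21262 windows include genes not expressed in these cells, and a comparison with genes expressed like the members was not made. Windows of negative members held NRF1 in 18.9% (7 of 37) and ETS in 10.8% (4 of 37). Those of members that did not pass held them in 24.5% (12 of 49) and 20.4% (10 of 49). These are matches of letters, not measured binding sites.

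Genes of the pathway outside the name pattern were counted from fixed lists. Of 55 further spliceosome components 13 were negative (23.6%) and 1 positive (median -0.16). For comparison, 13.5% of all tested genes were negative and 11.0% positive. Among the most abundant 25% of tested genes 23.4% were negative, a share close to that of these components. They included the cyclophilin Ppil1 at -1.22 ± 0.21, Ppih at -0.92 and the U1 protein Snrnp70 at -0.39, and the positive gene was the scaffold Srrm2 at 0.42 ± 0.15, all by the authors' deposited table. With the length and GC trends removed, Ppil1 had -1.07, Ppih -0.65, Snrnp70 -0.56 and Srrm2 0.20. The exon junction complex, the mark left on spliced exons, had 4 negative and 0 positive of 9 genes (median -0.51), with Magohb at -1.25 ± 0.26 and its paralog Magoh at -0.70 in the authors' deposited table. After removal of the same trends the median of this list was -0.26, with Magohb at -0.93 and Magoh at -0.26. Assembly of Sm rings by the SMN complex and its methyltransferase partners had 5 negative and 0 positive of 17 (median -0.27). Gemin6, an Sm-like SMN subunit, had -1.25 ± 0.28 and Smn1 -0.44 ± 0.18 without passing, both by the authors' deposited table.

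Other regulators of splicing went both ways, with 7 negative and 3 positive of 34 (median -0.15). The muscleblind paralogs had opposite signs, Mbnl1 at -0.45 ± 0.11 and Mbnl2 at 0.73 ± 0.13 in the authors' deposited table. Rbfox2 and Rbm5 were the other positive regulators at 1.15 and 0.43 in the authors' deposited table. Kinases and the importer of SR proteins, in a list that also held the DNA repair kinase Prkdc, had 0 negative and 1 positive of 11. The positive gene was Dyrk1b at 0.62 ± 0.23, and Clk1, Srpk1 and Prkdc did not pass at 0.34, -0.15 and 0.14 in the authors' deposited table. Nonsense-mediated decay is a pathway that degrades the unproductive isoforms that many SR genes make of themselves. Its list had 2 negative and 1 positive of 12. Negative were the cap-binding Ncbp1 at -0.50 ± 0.14 and Ncbp2 at -0.43 ± 0.15 in the authors' deposited table. The kinase Smg1 was positive at 0.51 ± 0.18, and Upf1 did not pass at -0.54 ± 0.23, in the authors' deposited table. No Upf or Smg gene of the list was negative. Proteins of the minor spliceosome had 1 negative (Snrnp25, -0.62 ± 0.17) and 0 positive of 11 in the authors' deposited table. The negative share was 20.6% for the other regulators, 16.7% for the decay factors and 9.09% for the minor spliceosome, beside 13.5% of all tested genes. With the length and GC trends removed, Mbnl1 had -0.69, Mbnl2 0.55, Rbfox2 1.03 and Dyrk1b 0.68. Values nearer to 0 than as deposited were left for Rbm5 (0.24), Ncbp1 (-0.37), Smg1 (0.22) and Snrnp25 (-0.31).

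**Figure D5:**
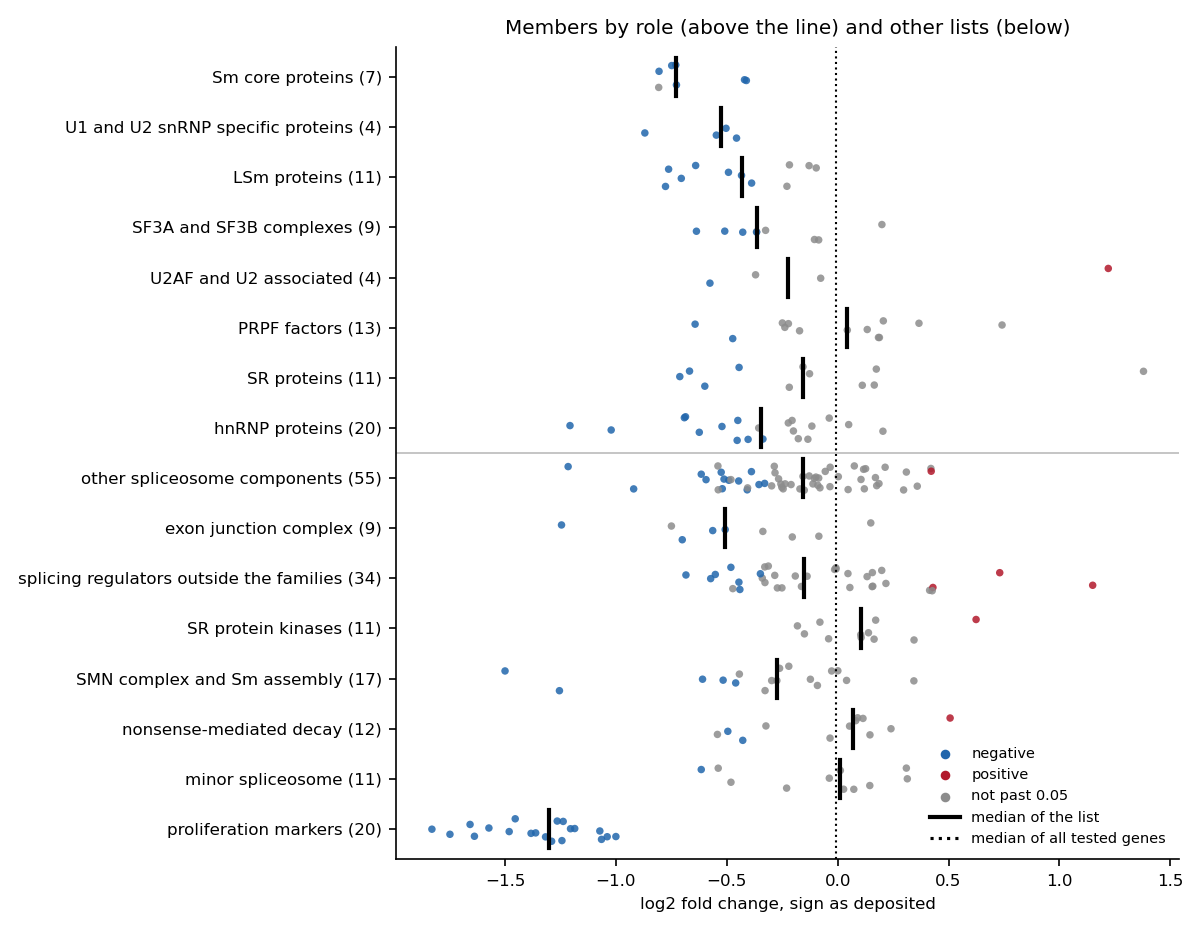
Log2 fold change (sign as deposited) of each tested gene, by role group of the members above the grey line and by list of other genes below it. Vertical strokes are list medians, the dotted line is the median of all tested genes, colour gives the call and numbers in brackets are tested genes. The PRPF, kinase, decay and minor spliceosome medians lie near 0, and the proliferation markers lie at or below -1.

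Proliferation genes shared the sign of most members. All 20 tested proliferation markers were negative, with a median of -1.30, for example Ccnb2 at -1.64 ± 0.20 and Birc5 at -1.75 ± 0.24 in the authors' deposited table. Their part in the negative signs of the splicing genes was not tested. ILC2 markers were abundant, with a median mean of 11642 normalized counts. Of 15, 5 were positive and 3 negative, and Gata3, the transcription factor that defines the lineage, stood at 0.63 ± 0.16 by the authors' deposited table. The other positive ones were Kit (1.53), Hes1 (1.10), Icos (0.54) and Il17rb (0.49). The negative ones were Thy1 (-1.98), Il13 (-1.06) and Klrg1 (-0.44) in the authors' deposited table. With the length and GC trends removed, Klrg1 had -0.11 and Il13 -0.76, and the 5 positive markers lay between 0.57 and 1.43. Of 67 tested markers of other cell types 18 were negative (26.9%, against 13.5% of all tested genes) and 0 positive. Below 0 lay 52, and the median was -0.96. Their median SE was 0.84, against 0.15 for the members, so a marker that did not pass could still differ widely. By list the median SE ran from 0.23 (dendritic cell list) to 1.12 (macrophage list). By list, negative were 5 of 10 dendritic cell and MHC class II markers (median -0.66), 5 of 9 B and plasma cell markers (median -1.0004) and 2 of 5 NK cell and ILC1 markers (median 0.04). Negative were also 2 of 10 T cell markers (median -0.12), 2 of 8 granulocyte and mast cell markers (median -1.15), 1 of 12 macrophage and monocyte markers (median -0.89) and 1 of 13 epithelial, endothelial and fibroblast markers (median -1.33). The most abundant gene of a list could differ from its median. In the authors' deposited table these genes were Cd74 of the dendritic cell list (-0.99), Ighm of the B cell list (-1.56), Gzma of the NK cell list (-3.94) and Lat of the T cell list (0.24). Likewise, Cpa3 stood for the granulocyte list (-0.03), Ccr2 for the macrophage list (0.12) and Sftpc for the epithelial list (-1.18) in the authors' deposited table. The median mean count of these markers was 109, with 10 of 78 under 10 normalized counts and none listed at 0. Some were far more abundant, such as Cd74 (11427) and Ccr2 (9763). Bulk values do not tell whether ILC2s or other cells made their RNA. Their summed level per genotype is not given here, and the part of other cells' RNA in the members' values was not tested.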

How the data were processed

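Bulk RNA of sorted lung ILC2s was measured in 3 KO and 3 WT samples. The submitters' processing notes name HISAT2, Cufflinks and the build mm10. The labels' protocols describe full-length cDNA by SMART-Seq HT and libraries by TruePrep V2. How reads were counted, with which annotation and filters and whether by strand, is not stated by the sources used here. Per the file headers, the authors deposited for each gene the mean normalized count, a signal with no stated set of libraries, as well as the log2 fold change and SE, the test score, and the raw and adjusted p-value. Per-sample values in 12 other columns, under 6 library names, matched no label and were not used, so that planned fits on samples were not run and the depth per sample is not given. Precision rests on the deposited SE.

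Calls used the deposited adjusted p below 0.05. It equalled a Benjamini-Hochberg adjustment over the 14961 genes that have one. Members, role groups and lists were chosen with earlier results of these data known. The genes named in each role group were the 3 called members with the smallest p, the most abundant and any of opposite sign. In each pathway list it was the called gene with the smallest p per direction. In the proliferation list 2 genes were taken, and in the other marker lists the most abundant. Others were chosen after their values were seen. Of the tested members, 1 is not reported singly here and enters only counts and medians.

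Exonic length (union of exons) and overlaps came from GENCODE M21 (39191 of 39527 identifiers and all 81 members matched), GC content from its longest transcript, and copies from BLAST 2.17.0 of coding sequences against its transcripts. Lowess trends (statsmodels 0.14.6, fraction 0.3) on log10 length, then GC, were removed over 13036 protein-coding genes, with calls from the adjusted value over its SE. Benjamini-Hochberg calls and the removal of a length trend were tested on simulated data. The GC step, the overlaps and the copies were not. Tables were handled in pandas 2.3.3 under Python 3.11.15, and figures drawn with matplotlib 3.10.9. Alternatives were another adjustment, threshold, count minimum, fold size, centring or averaging, any gene type, and the removal of genes with copies or overlaps.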

Additional observations from a re-analysis of the deposited data

How the results depend on the processing

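Of the tested members, 38 negative and 1 positive were called as deposited. The negative count was 21 at an adjusted p below 0.01, 19 when at least a 1.5-fold difference was required, 24 with the length and GC trends removed, and 19 of 49 among members without copies or overlaps, an alternative chosen after seeing the data. It stayed between 27 and 41 under the other adjustments, the looser threshold, the count minimum of 100, both centrings and members of any gene type. The positive count was 0 with the adjustment over all genes with a p-value, below 0.01, with the count minimum and without copies or overlaps, 2 with the adjustment over protein-coding genes, the trends removed or either centring, and 3 below 0.1. The members' median stayed between -0.37 and -0.22. By inverse-variance weighted mean, the PRPF value was -0.0234, the decay factor value -0.0377 and the minor spliceosome value -0.0917, against positive medians. With the trends removed the kinase list median was -0.0181, which is the value of Prkdc. Cpa3 was 0.30 with the trends removed, or 0.0077 when centred on the most abundant 25%. For these reversals the cause was not tested. Stk11 kept its sign and call under every alternative run on it. No paired analysis was possible because the columns carry no replicate numbers, and samples could not be left out for the same reason.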
